A study of Homo sapiens with 6 samples.

Results

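The GATA1-TAL1 complex was followed through 10 genes named by the rule: the GATA factors GATA1 and GATA2, the helix-loop-helix factors TAL1 and LYL1, the E protein gene TCF3, the adaptors LMO2 and LDB1, the GATA cofactor ZFPM1, the corepressor CBFA2T3 and RUNX1. All 10 names matched 1 row each among the 62754 gene rows of the deposited tables, and all 10 passed the filter on low values, at least 1 TPM (transcripts per 1000000 transcripts, a level that accounts for gene length) in 3 or more libraries. All 10 are protein-coding in GENCODE v29, where they have 2 (GATA1) to 20 (TCF3) annotated transcripts.

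HUDEP-2, an immortalised human erythroid progenitor line, was given a lentiviral MEN1 shRNA (labelled MEN1sh2, 3 libraries) or a control shRNA (labelled Controlsh, genotype WT, 3 libraries). MEN1 encodes menin, the subunit that tethers the MLL1 histone methyltransferase complex to chromatin. Medium for both groups held erythropoietin (3 units/ml), stem cell factor (50 ng/ml), dexamethasone and doxycycline (1 µg/ml). Both were selected with puromycin at 2 µg per ml from 24 h after infection for 48 h and profiled at 72 h. The labels name 1 MEN1 hairpin, so menin loss and off-target action of the hairpin cannot be told apart, and they call the replicates biological without saying which cultures were separate.

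GATA1 is the master activator of erythroid genes, and FOG1, the product of ZFPM1, is its cofactor. TAL1 pairs with an E protein and is joined to GATA1 through the LIM-only protein LMO2 and the scaffold LDB1, while ETO2, the product of CBFA2T3, is a corepressor held in the same complex. GATA2 occupies many of these sites in progenitors. As GATA1 accumulates it replaces GATA2, including at the GATA2 gene itself, which is then shut down: this exchange is known as the GATA switch.

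In these libraries GATA2 passed the test for a difference and GATA1 did not. GATA2 fell to 45.8% of its control level, whereas GATA1 was at 104% of its own. TAL1, LYL1 and ZFPM1 rose, by 1.68, 1.28 and 1.60 times, and LDB1, CBFA2T3 and RUNX1 fell to 55.8%, 51.5% and 33.5% of control. In limma, 7 members had an adjusted p under 0.05 (3 were higher, 4 lower), against a background of 53.6% of the 14294 genes tested (22.1% higher and 31.5% lower). The groups did not overlap in TPM in 8 of the 10, against 61.8% of genes tested. With so wide a response, these counts alone set the members little apart from the rest of the transcriptome, and what follows turns on which members moved and which way. The median log2 fold change was -0.10 over the members and -0.07 over all genes tested.

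**Figure D1:**
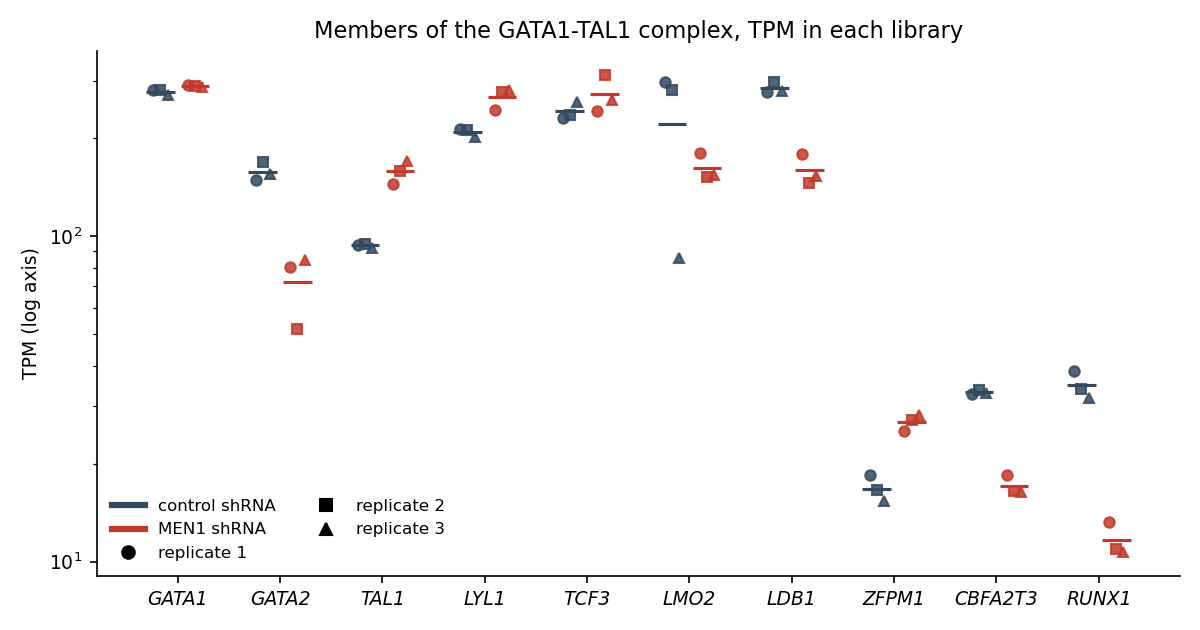
TPM of the 10 members (log axis) in the 3 control shRNA and 3 MEN1 shRNA libraries, with a bar at each group mean and 1 symbol per replicate number. GATA1 lies between 270.02 and 291 TPM in all 6 libraries, GATA2 drops from between 149 and 168 to between 51.8 and 84.6, and for LMO2 control replicate 3 stands apart at 85.3.

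The targeted gene was read first. MEN1 was at 6.29, 6.44 and 6.88 TPM under MEN1 knockdown and at 41.2, 39.6 and 37.1 TPM in the controls, so 16.6% of the control level remained. Depth, inferred from the deposited coverage and FPKM, was 18400000 to 35800000 read pairs per library. Mean read depth over the members ran from 0.891 reads per base (RUNX1, MEN1 shRNA replicate 3) to 1262 (GATA1, control replicate 2). All 8 fixed erythroid markers passed the filter and 6 rose. HBB, the beta-globin gene, made up most of their sum, at 47240 to 53001 TPM under MEN1 knockdown and 27314 to 32627 TPM in the controls, and the other 7 summed to 7336 to 7427 and 4471 to 5098 TPM. EPOR and KLF1 were the markers that did not pass the threshold.

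GATA1 (ENSG00000102145, chromosome X, 48786540 to 48794311, plus strand) was at 291, 289.6 and 286 TPM in MEN1 shRNA replicates 1, 2 and 3, and at 280.2, 281 and 270.02 TPM in the controls. The MEN1 shRNA libraries lay just above every control. The log2 fold change of 0.06 (SE 0.0478, 95% interval -0.05 to 0.17) had an adjusted p of 0.327 in limma and did not pass the threshold. Median-of-ratios scaling brought it past, at 0.15 (adjusted p 0.0428), and over all alternatives the adjusted p ran from 0.0428 to 0.589.

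GATA2 (ENSG00000179348, chromosome 3, 128479427 to 128493201, minus strand) was at 80.04, 51.8 and 84.6 TPM in replicates 1, 2 and 3 of the MEN1 shRNA, against 149, 168 and 155 TPM in the controls. Every MEN1 shRNA library was below every control, and replicate 2 was the lowest. Means were 72.1 ± 17.8 and 157 ± 9.84 TPM (SD, n = 3 each), a log2 fold change of -1.15 (SE 0.172, adjusted p 0.00101 in limma). Without MEN1 shRNA replicate 2 the fall was -0.93 on the log2 scale (adjusted p range over all alternatives 0.000363 to 0.0091).

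The ratio of GATA2 to GATA1 within a library does not depend on library scaling. By TPM, a level per length, it was 0.275, 0.179 and 0.295 in replicates 1, 2 and 3 of the MEN1 shRNA, against 0.532, 0.598 and 0.574 in the controls. GATA2 thus made up 19.9% ± 4.10 of the summed GATA1 and GATA2 TPM under MEN1 knockdown and 36.2% ± 1.37 in the controls (SD, n = 3 each). The difference in mean log2 ratio was -1.22, and the exact permutation test (2-sided) gave p = 0.1, its floor for 3 against 3 libraries. Adjusted over the 2 ratios tested, this p stayed at 0.1. By coverage per base the ratio was lower in both groups, 0.107 ± 0.0316 against 0.263 ± 0.0117, and GATA2 made up 9.60% and 20.8% of the pair. The fall in the ratio was thus seen with both quantities, while the share itself depended on which was used.

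An annotated antisense gene crosses the upstream end of GATA2. GATA2-AS1 (ENSG00000244300, plus strand, 128489212 to 128502970) shares 3990 bases with the GATA2 span. It was at 30.1, 30.8 and 33.1 TPM under MEN1 knockdown and at 24.04, 25.6 and 19.6 TPM in the controls. It rose (log2 fold change 0.43, adjusted p 0.0103 in limma) while GATA2 on the opposite strand fell. The kit marks strand, but whether the quantification used it is not stated, so reads in the shared part may be divided either way. The summed TPM of both genes still fell, from 180.5 to 103 (log2 fold change -0.81, adjusted p 0.00131), a sum made after the data were seen.

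The 250 bases before the distal GATA2 start lie inside the span of GATA2-AS1 but just upstream of the GATA2 span. This window is shown as the part of GATA2-AS1 next to the GATA2 start, and it holds none of the bases that the 2 genes share. Beside it stand the windows of TAL1 and LYL1, the paralogs that rose together and the only members whose window held GATA letters on either strand (the motif AGATAA or the motif AGATAG, or either with T as its first letter, which gives the motif TGATAA or the motif TGATAG). Sequences are RefSeq, GRCh38.p14, on the minus strand that all 3 genes use, with matched letters in capitals, here as their reverse complement.
GATA2, chr3:128493202-128493451: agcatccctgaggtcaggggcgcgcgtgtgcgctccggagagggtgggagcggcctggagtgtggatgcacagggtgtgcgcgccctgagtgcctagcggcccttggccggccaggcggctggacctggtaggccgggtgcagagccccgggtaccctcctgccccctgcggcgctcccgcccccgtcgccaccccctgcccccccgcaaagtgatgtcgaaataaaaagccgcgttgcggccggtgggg
TAL1, chr1:47232336-47232585: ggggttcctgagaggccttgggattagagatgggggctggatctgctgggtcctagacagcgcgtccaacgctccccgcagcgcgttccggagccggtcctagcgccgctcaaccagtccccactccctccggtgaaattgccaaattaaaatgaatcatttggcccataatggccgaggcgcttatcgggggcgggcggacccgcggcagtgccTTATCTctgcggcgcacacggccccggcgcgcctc
LYL1, chr19:13102859-13103108: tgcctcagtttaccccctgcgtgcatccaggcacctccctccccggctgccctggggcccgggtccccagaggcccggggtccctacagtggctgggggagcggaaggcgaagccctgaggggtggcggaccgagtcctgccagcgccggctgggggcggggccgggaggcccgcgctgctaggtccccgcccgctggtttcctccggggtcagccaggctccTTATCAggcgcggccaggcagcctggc

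The match AGATAA lay 35 to 30 bases before the RefSeq start of TAL1 and TGATAA 27 to 22 bases before that of LYL1. These starts are not those of the deposited rows: the LYL1 window lies inside the deposited LYL1 span, and the TAL1 window begins upstream of the deposited TAL1 span. RefSeq windows were found for 9 of the 10 members, 11 windows in all since GATA2 and TAL1 have 2 each, and 2 of the 11 held a match. Of 35116 windows of the same length, 22.3% held one. The E-box letters CANNTG were in 3 member windows and in 61.8% of all. These are letters in a short window and say nothing of binding.

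TAL1 (ENSG00000162367, chromosome 1, 47216290 to 47232225, minus strand), the helix-loop-helix factor that gives the complex its name, was at 145, 159 and 169.97 TPM under MEN1 knockdown and at 94.1, 94.8 and 92.1 TPM in the controls. The lowest MEN1 shRNA library was thus well above the highest control. Means of 158 ± 12.6 and 93.7 ± 1.38 TPM gave a log2 fold change of 0.74 (SE 0.0686, adjusted p 0.000115 in limma). An unnamed antisense row within its span (ENSG00000226252, plus strand) moved the same way, from 2.56 to 5.63 TPM (log2 difference 0.89, adjusted p 0.00132).

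LYL1, the TAL1 paralog (ENSG00000104903, chromosome 19, 13099033 to 13103161, minus strand), was at 244, 276 and 279.8 TPM under MEN1 knockdown and at 213, 211 and 201 TPM in the controls, with no overlap. It rose by 0.35 on the log2 scale, against 0.74 for TAL1 (SE 0.0671, adjusted p 0.00322). The ratio of LYL1 to TAL1 was 1.69, 1.74 and 1.65 in replicates 1, 2 and 3 of the MEN1 shRNA, against 2.27, 2.23 and 2.18 in the controls. Its mean on the log2 scale differed by -0.40 (2-sided exact permutation p 0.1, the smallest possible, and 0.1 after adjustment over the 2 ratios). By coverage per base the ratio was nearer to 1 in both groups, 1.19 ± 0.0174 under MEN1 knockdown against 1.61 ± 0.0856. The excess of LYL1 over TAL1 thus depended on the quantity used. Together the paralogs reached 425 ± 31.4 TPM against 302 ± 7.91 TPM in the controls (SD, n = 3 each).

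**Figure D2:**
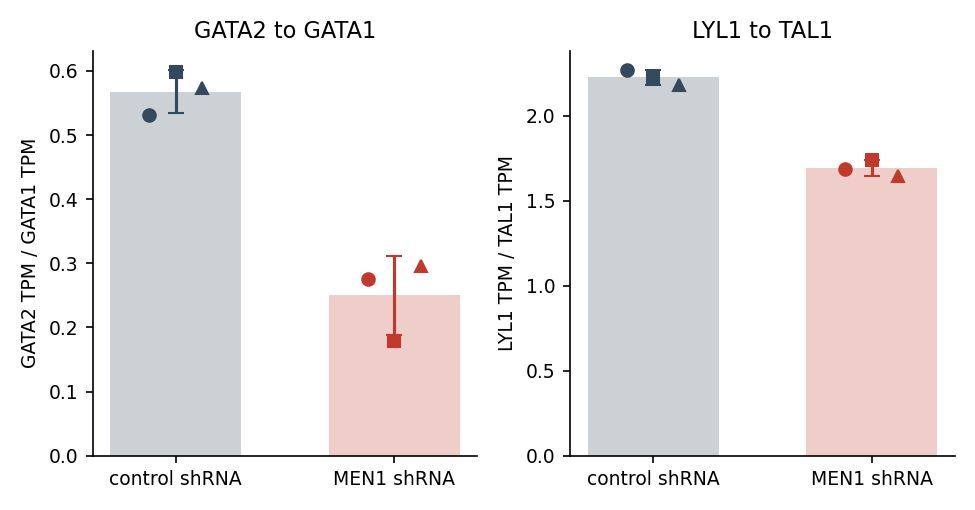
Ratio of TPM within each library for GATA2 to GATA1 (left) and LYL1 to TAL1 (right). Bars are means of 3 libraries, error bars the SD and symbols the replicates: both ratios are lower in every MEN1 shRNA library, from 0.568 to 0.250 and from 2.23 to 1.69.

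TCF3 encodes the E proteins that TAL1 and LYL1 pair with (ENSG00000071564, chromosome 19, 1609291 to 1652615, minus strand). Its TPM was 243, 313 and 262 under MEN1 knockdown and 229.7, 236 and 258 in the controls, so the groups overlapped. The log2 fold change was 0.17 (95% interval -0.06 to 0.40, adjusted p 0.183). MEN1 shRNA replicate 2, the highest by TPM, was the lowest of its group in coverage scaled to 1000000 per library (232 against 272 and 293), so its high TPM is not matched by reads over the gene. Without that library the log2 fold change was 0.07.

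Of the other E protein genes, TCF4 fell from 18.2 ± 3.602 to 7.10 ± 0.882 TPM (log2 difference -1.24, adjusted p 0.000348), to 38.9% of control by TPM and 45.2% by scaled coverage. TCF12 was slightly lower, 38.0 ± 0.155 against 43.04 ± 0.457 TPM (log2 difference -0.18, adjusted p 0.0319), a call lost under 11 of 17 alternatives. ID proteins bind E proteins and block their pairing with TAL1. ID2, the most abundant of them here, was at 149, 216 and 237 TPM under MEN1 knockdown and at 518, 315 and 558 TPM in the controls. The groups did not overlap, although control replicate 2 stood well below the other controls, and ID2 fell (log2 fold change -1.19, adjusted p 0.00458). ID1 was at 13.2 against 17.2 TPM (log2 difference -0.35, adjusted p 0.0837, and 0.0411 without control replicate 3), while ID3 and ID4 did not reach 1 TPM in any library.

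LMO2 bridges TAL1 and GATA1 within the complex and binds LDB1 (ENSG00000135363, chromosome 11, 33858576 to 33892076, minus strand). Its TPM was 179.6, 151 and 154 under MEN1 knockdown, and 297, 280.2 and 85.3 in control replicates 1, 2 and 3. One control library decided the result: the other 2 controls lay above every MEN1 shRNA library and control replicate 3 lay below them all. The log2 fold change was -0.25 (95% interval -1.26 to 0.75, adjusted p 0.650). Without control replicate 3 it was -0.84 (adjusted p 0.000733), dropping control replicate 1 gave 0.06, and dropping control replicate 2 gave 0.02. The low value was also in the coverage, at 21.6 scaled units against 79.2 and 75.9 in the other controls. An unnamed antisense row within the LMO2 span was highest in that library, at 4.67 TPM against 2.79 and 3.09 in the other controls. Under MEN1 knockdown this row was at 1.90, 2.55 and 2.12 TPM (log2 difference -0.49, adjusted p 0.0577 in limma). In control replicate 3, 37 of 10185 genes with a mean TPM of 5 or more lay under 50% of both other controls, and such genes numbered 21 to 41 in each of the 6 libraries, so that library did not stand apart in their number.

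LDB1, the scaffold that dimerises and can link distant elements (ENSG00000198728, chromosome 10, 102106489 to 102120368, minus strand), gave no such doubt. It was at 179, 146 and 152 TPM under MEN1 knockdown and at 278, 298 and 279 TPM in the controls, with a wide gap between the groups. LDB1 fell by 0.84 on the log2 scale (SE 0.0826, adjusted p 0.000145). By TPM it was level with GATA1 in the controls, and under MEN1 knockdown it overlapped LMO2 and TAL1.

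SSBP proteins bind LDB1 and protect it from degradation. SSBP4 fell from 115 ± 7.15 to 82.7 ± 8.46 TPM (log2 difference -0.48, adjusted p 0.00286). SSBP3 was at 81.0 ± 0.996 against 72.3 ± 2.80 TPM in the controls (log2 fold change 0.16, adjusted p 0.0430), a call lost under 10 of 17 alternatives and in every fit with 1 library left out. SSBP2 was at 5.53 against 5.41 TPM (log2 difference 0.01, adjusted p 0.944). LMO4, a LIM-only protein that can also bind LDB1, fell from 7.83 ± 1.27 to 4.13 ± 0.420 TPM (log2 difference -0.78, adjusted p 0.00214). LMO1 did not exceed 0.0476 TPM, and LDB2 was listed at 0 in every library.

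ZFPM1 (ENSG00000179588, chromosome 16, 88453280 to 88537031, plus strand) encodes FOG1, which GATA1 needs at many of the genes it turns on or off. It was at 25.1, 27.2 and 28.1 TPM under MEN1 knockdown and at 18.4, 16.5 and 15.3 TPM in the controls, with no overlap. ZFPM1 rose by 0.65 on the log2 scale (SE 0.0903, adjusted p 0.000699), and by 0.48 with coverage (adjusted p 0.00534). ZFPM1-AS1, an antisense row in its span, rose as well, from 1.01 to 2.43 TPM (log2 difference 0.77, adjusted p 0.00339). The related ZFPM2 passed the filter only through the MEN1 shRNA libraries, at 1.23, 2.41 and 2.02 TPM against 0.862, 0.446 and 0.379. Its mean was 3.35 times the control mean by TPM and 3.20 times by scaled coverage. Adding 1 to coverage values this far below 1 leaves a log2 difference of 0.07, which was not past the threshold (adjusted p 0.142).

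CBFA2T3 (ENSG00000129993, chromosome 16, 88874858 to 88977207, minus strand) encodes ETO2, which holds TAL1 target genes in check in progenitors. Its TPM was 18.4, 16.4 and 16.4 under MEN1 knockdown and 32.8, 33.6 and 33.01 in the controls. The controls were nearly identical and every MEN1 shRNA library lay far below them, a log2 fold change of -0.92 (SE 0.0745, adjusted p 7.19e-05). CBFA2T2, an ETO2 paralog, was at 4.69 against 5.75 TPM (log2 difference -0.25, adjusted p 0.0729). RUNX1T1, which encodes ETO, went the other way: it was at 2.15, 2.96 and 4.33 TPM under MEN1 knockdown and at 0.0449, 0.136 and 0.280 in the controls. It passed the filter only through the MEN1 shRNA libraries (log2 fold change 1.82, adjusted p 0.000375). By scaled coverage its mean was 10.4 times the control mean, with a depth under 1 read per base in every library.

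RUNX1 (ENSG00000159216, chromosome 21, 34787801 to 36004667, minus strand), a progenitor and megakaryocyte factor that works beside GATA and TAL1 proteins, had the lowest level relative to control of all members, by TPM (33.5%) and by scaled coverage (32.4%, against 41.9% for GATA2). It was at 13.3, 10.9 and 10.7 TPM under MEN1 knockdown and at 38.6, 34.0 and 31.7 TPM in the controls, so the highest MEN1 shRNA library held less than the lowest control. RUNX1 fell by 1.5025 on the log2 scale (SE 0.111, adjusted p 5.2e-05). Its TPM was 11.2 times its scaled coverage in the controls, against 0.471 to 1.02 times for GATA1, GATA2, TAL1, LYL1, TCF3, LDB1 and ZFPM1. CBFA2T3 (5.36) and LMO2 (3.75) stood between, so levels compared between genes depend on the quantity used.

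The other RUNX genes and their shared partner moved the same way. RUNX3 fell from 12.2 ± 0.744 to 5.02 ± 1.19 TPM (log2 difference -1.15, adjusted p 0.000524) and RUNX2 from 5.41 ± 0.939 to 1.97 ± 0.249 TPM (-1.11, adjusted p 0.00061). CBFB, the subunit that strengthens DNA binding of all RUNX proteins, fell from 24.0 ± 0.749 to 17.5 ± 0.808 TPM (-0.44, adjusted p 0.00168). Each of these 3 had no overlap between the groups and kept its call under every alternative in which it was tested.

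**Figure D3:**
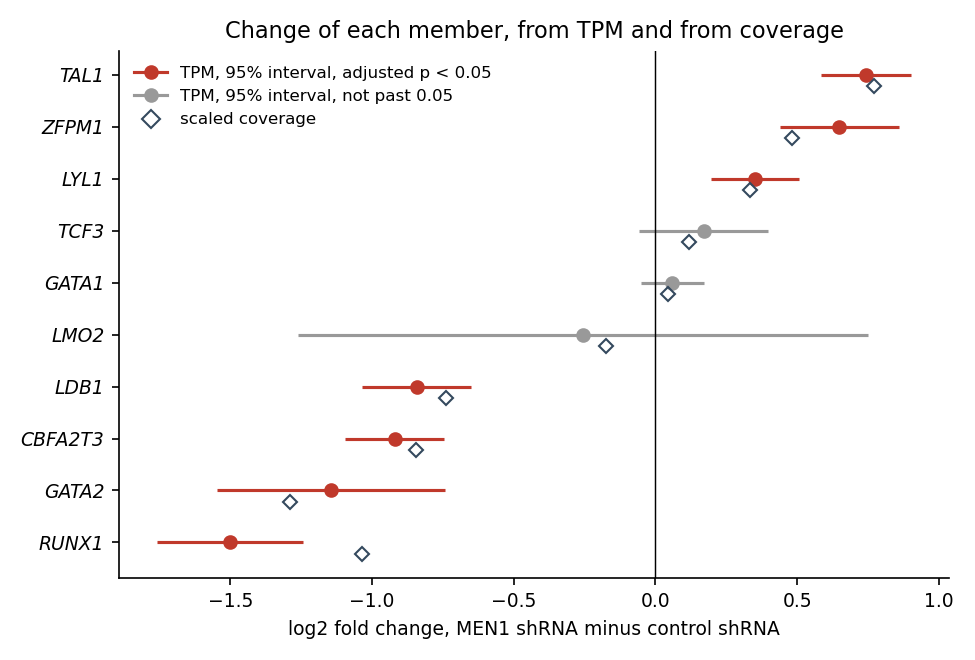
Log2 fold change of each member, MEN1 shRNA minus control shRNA. Circles and lines are the TPM estimate with its 95% interval in limma and diamonds, drawn without an interval, the estimate from scaled coverage. The same 7 members passed the threshold by both. By TPM they ran from RUNX1 at -1.5025 to TAL1 at 0.74, and by coverage from GATA2 at -1.29 to TAL1 at 0.77. The RUNX1 diamond (-1.03) is drawn towards 0 because 1 was added to its low coverage values. The LMO2 interval runs from -1.26 to 0.75.

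Of the 22 partner, inhibitor and paralog genes listed, 14 passed the filter, 8 fell and 3 rose by the threshold, with a median log2 fold change of -0.39, against 31.5% lower, 22.1% higher and a median of -0.07 over all genes tested. Of the 3 that rose, RUNX1T1 and ZFPM2 passed the filter only where they were high and SSBP3 was a marginal call. Besides those named, GATA3 and TAL2 stayed under 1 TPM. ETS factors work with GATA2, RUNX1, TAL1, LYL1 and LMO2 in blood progenitors: FLI1 did not exceed 0.0435 TPM, and ERG was at 0.437, 0.120 and 0.186 TPM under MEN1 knockdown against 1.32, 0.942 and 1.24 in the controls, under the filter and not tested.

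**Figure D4:**
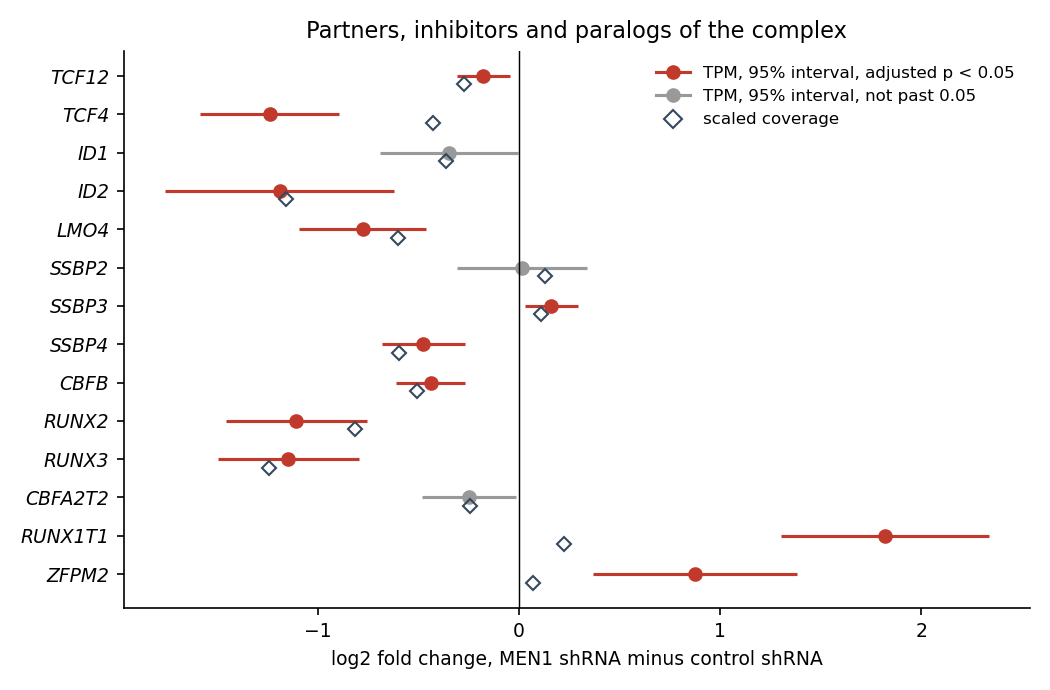
Log2 fold change of the 14 listed partners, inhibitors and paralogs that passed the filter, drawn as for the members. TCF4, ID2, RUNX2 and RUNX3 lie furthest to the left, between -1.24 and -1.11, and the diamonds of TCF4, RUNX1T1 and ZFPM2 are drawn towards 0 because 1 was added to coverage values below 1.

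The order of levels among the members differed between the groups by TPM. In the controls LDB1 (285 TPM) and GATA1 (277) led, followed by TCF3 (241), LMO2 (221) and LYL1 (209), whose ranges overlapped one with the next. After them came GATA2 (157), TAL1 (93.7), RUNX1 (34.8) and CBFA2T3 (33.2), the last 2 overlapping, and ZFPM1 (16.8). The place and overlaps of LMO2 rested on control replicate 3, at 85.3 TPM against 297 and 280.2, and its range also took in GATA2 and TAL1. Under MEN1 knockdown, GATA1 (289), TCF3 (273) and LYL1 (267) led with ranges that overlapped in turn. LMO2 (162), LDB1 (159) and TAL1 (158) followed and overlapped too, and GATA2 (72.1), ZFPM1 (26.8), CBFA2T3 (17.1) and RUNX1 (11.6) were each clear of the next. By scaled coverage GATA1 led clearly in both groups (589 and 607), ahead of LDB1 in the controls (376) and of LYL1 under MEN1 knockdown (287). ZFPM1 (28.8) was already above CBFA2T3 (6.18) and RUNX1 (3.09) in the controls. GATA2 and TAL1 overlapped in the controls by coverage (155 and 141) and were far apart under MEN1 knockdown (64.9 and 241), where TAL1 was higher by both quantities.

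Genes that GATA1 is known to turn on formed a list of 31, all of which passed the filter. By the threshold 22 rose and 3 fell, against 22.1% and 31.5% of all genes tested, with a median log2 fold change of 0.73 against -0.07. SLC4A1, the red cell anion exchanger (1.93, adjusted p 8.37e-06), TRIM10, an erythroid maturation gene (2.68, 1.07e-05), GYPB, a glycophorin with close paralogs (1.95, 1.37e-05), UROD of heme synthesis (1.12, 1.59e-05) and the cell cycle factor E2F2 (1.31, 2.39e-05) had the lowest adjusted p-values. ICAM4, a red cell adhesion molecule, fell from 122 ± 5.63 to 70.5 ± 14.3 TPM (log2 difference -0.80, adjusted p 0.0015). TSPAN33 (-0.57, adjusted p 0.0287), which passed the filter only through the controls, and HEBP1 (-0.21, adjusted p 0.0390) lost their calls under several alternatives.

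The 6 remaining genes of that list did not pass the threshold, and 5 of them encode regulators or a receptor. They are named here after their values were seen. Other regulators of the list rose, among them E2F2 (1.31) and ZBTB7A (0.36, adjusted p 0.0178 in limma). KLF1 (533 against 553 TPM, log2 fold change -0.05), GFI1B (389 against 389, log2 fold change -0.0023), EPOR (104 against 103, 0.02), FOXO3 (45.8 against 48.8, -0.09) and ANK1 of the membrane skeleton (413 against 386, 0.09) had adjusted p-values of 0.163 to 0.983. NFE2 was at 304, 167 and 312 TPM in replicates 1, 2 and 3 of the MEN1 shRNA, against 303, 283 and 300.2 TPM in the controls (adjusted p 0.412). Replicate 2 was the low library there, as it was for GATA2.

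Genes that GATA1 is known to turn off, or that are shut down as it drives maturation, moved downwards. Of 9 listed, 8 passed the filter, 7 fell and 0 rose, with a median log2 fold change of -0.70, against 31.5% lower, 22.1% higher and a median of -0.07 over all genes tested. KIT, the stem cell factor receptor, fell from 271 to 122 TPM (log2 difference -1.15, adjusted p 2.56e-05). MYB (-1.23, adjusted p 2.97e-05) and MYC (-1.65, 6.4e-05), both drivers of progenitor growth, HHEX (-0.60, 0.000257) and the cyclin gene CCND2 (-0.50, 0.000539) fell as well. SPI1, a myeloid factor that opposes GATA1, was at 33.2 against 31.2 TPM (0.08, adjusted p 0.599), and CD34 was under the filter. In a bulk sample fewer cells of a stage and less RNA per cell cannot be told apart, for these lists and for the members alike.

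**Figure D5:**
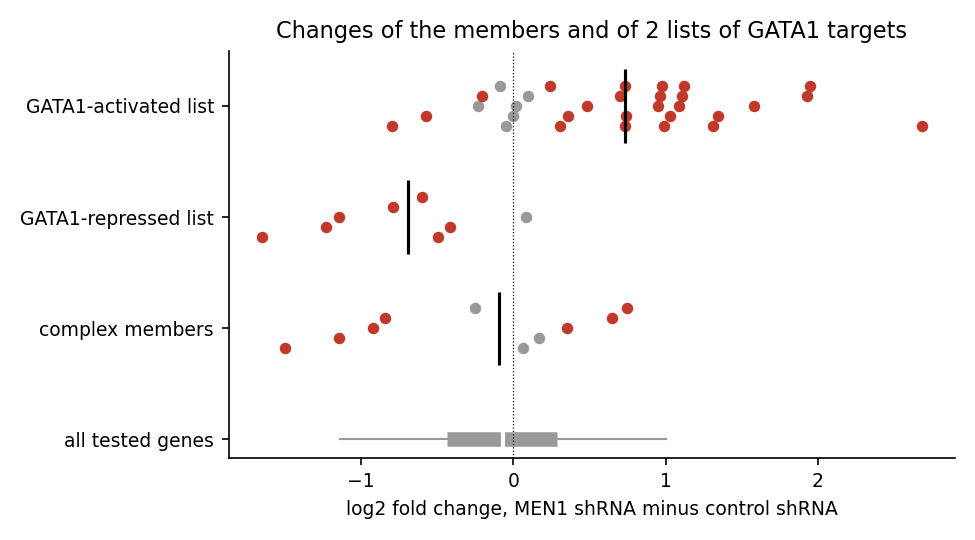
Log2 fold change (MEN1 shRNA minus control shRNA) of the tested genes of each list, red past an adjusted p of 0.05 and grey not, with a black line at the list median. The grey box and whisker give the 25th to 75th and the 5th to 95th percentiles of all 14294 genes tested: the GATA1-activated list centres on 0.73, the GATA1-repressed list on -0.70, and the members spread on both sides.

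Markers of other blood lineages were low apart from a few. Of 8 mast cell and basophil markers, the tryptases TPSAB1 and TPSB2 were abundant and fell (log2 fold change -0.52 and -0.59), and the other 6 summed to 1.19 to 1.76 TPM under MEN1 knockdown and 1.75 to 3.30 TPM in the controls, with CLC at 0 in every library. Of 8 megakaryocyte markers ITGA2B fell (-0.83). The other 7 summed to under 1 TPM, at 0.571 to 0.851 under MEN1 knockdown and 0.435 to 0.519 in the controls, with PF4 and PPBP at 0. Granulocyte and monocyte markers summed to 0.857 to 1.93 TPM under MEN1 knockdown and 3.86 to 5.62 TPM in the controls. LYZ (-1.05) and AZU1 (-1.51), which passed the filter only through the controls, fell and made up most of the control sum. The other 6 stayed under 1 TPM in every library. Of these, ITGAM was higher under MEN1 knockdown (0.332, 0.837 and 0.325 TPM against 0.312, 0.121 and 0.126) and CSF1R was lower, both without overlap. Of 6 lymphoid markers PTPRC fell (-0.77) and the other 5 summed to under 1 TPM. The falls named here went the same way as those of GATA2 and RUNX1, while ITGAM and the low sum of the other megakaryocyte markers did not. The part of these markers in the result was not tested.

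The genes whose profile over the 6 libraries was nearest to that of GATA1 or GATA2 were sought among 9924 candidates by the root mean square distance of log2(TPM + 1) after centring each gene. For GATA2 they were BCL7A (distance 0.092), CFAP68 (0.115) and ZNF512B (0.116), whose log2 fold changes were -1.15, -1.07 and -1.19. For GATA1 they were CALM3 (0.0209), RPL27A (0.0246) and VPS35L (0.0257), with log2 fold changes of 0.06, 0.02 and 0.09.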

How the data were processed

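PolyA-selected, strand-marked RNA-seq libraries of HUDEP-2 cells were made for 3 MEN1 shRNA and 3 control shRNA samples. Per the submitters' processing notes, FastQC, Trimmomatic, STAR 2.7.1a, Picard 2.20.4, StringTie 2.0.4 and the hg38 build were used. Annotation and strand setting: not given in the sources used here. The authors deposited, per library, TPM, FPKM and unscaled read coverage (signal) for 62754 genes. In control replicate 2, 2 genes held negative residues, which were set to 0. Of the gene IDs, 58261 were in GENCODE v29, and 99.9% of those overlapped their position there.

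The deposited TPM values were analysed as log2(TPM + 1), so fold changes of low genes are understated. The 14294 genes that reached 1 TPM in 3 or more libraries were tested 2-sided with limma 3.58.1 (R 4.3.3, trended variance). P-values were adjusted by Benjamini-Hochberg over these genes, with a threshold of 0.05. Ratios within a library were compared by exact permutation with NumPy 2.4.6. Scaled coverage is the deposited coverage divided by its sum and multiplied by 1000000. Its fit also added 1, which shrinks differences of values under 1, so ratios of its group means with no pseudocount, added after the data were seen and not tested, are given instead for such genes. The limma fit was tested on simulated data. Adjusted p-values weigh each difference against the spread between these samples, which may be in part technical. Deviations of samples with the same replicate number were barely correlated (0.017, -0.027 and -0.012), which cannot show whether those samples were handled together.

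The members and lists were chosen with earlier results of these data known. Named were all members, the listed partners, rows that overlap a member and passed the filter, and markers of other cell types that moved. Each target list gave up to 5 genes with the lowest adjusted p in its main direction and up to 3 in the other. The 3 nearest profiles of GATA1 and GATA2 were named too. Alternatives were other pseudocounts, filters, units, scalings and variance models, a replicate block, and each library left out.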

Additional observations from a re-analysis of the deposited data

How the results depend on the processing

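Over 10 main results and 156 comparisons with alternatives, 150 were unchanged, with counts within 1.5 times and ratios in the same direction. The GATA2 to GATA1 and LYL1 to TAL1 ratios gave 10 of these comparisons each. Their exact permutation p was 0.1 to 0.25, too high for a call in any setting. Those comparisons could thus show only a change of direction. The exception was the number of GATA1-activated genes that fell, 3 as reported, which was 1 with no filter and 1 with a replicate block, and 1 to 2 with 1 library left out. Calls over all genes ran from 6345 (mean TPM of 5 or more) to 8033 (array weights), and from 6577 to 7542 with 1 library left out, and members called from 7 to 8. The share of calls that were higher was 41.2%, and 49.5% with median-of-ratios scaling. Among the members, 173 of 177 comparisons were unchanged. GATA1 passed the threshold with median-of-ratios scaling (0.15), and LMO2 did so without control replicate 3 (-0.84) and changed sign without control replicates 1 (0.0568) and 2 (0.0156). SSBP2, near 0 throughout, changed sign with array weights (-0.00929) and without MEN1 shRNA replicates 1 (-0.0798) and 2 (-0.024) and control replicate 1 (-0.00715). The cause was not tested. With the replicate block, 7012 genes and 7 members were called. For the paired comparison of ratios the differences stayed at -1.22 for GATA2 to GATA1 and -0.40 for LYL1 to TAL1 (exact permutation p 0.25, the smallest possible for 3 pairs). The labels do not say whether libraries with the same number were handled together: of 3 replicates, 1 correlated best with its own number. Depth was under 2 reads per base in every library for ZFPM2, RUNX1T1 and TCF4.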
